A study of Mus musculus with 30 samples.

Results

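The transcripts of 36 aminoacyl-tRNA synthetase genes were followed in murine erythroleukemia (MEL) cells with and without the mitochondrial transporter Abcb10. The genes were chosen by name from the 54532 genes of the count table: 20 genes of cytosolic enzymes and 16 genes of mitochondrial enzymes, whose symbols end in 2. Each matched 1 row of the table, and all 36 passed the filter on low counts in every comparison, with the lowest count in any library, 34, in *Sars2*. MEL is a mouse erythroid precursor line that makes hemoglobin when it is cultured in dimethyl sulfoxide (DMSO). WT cells and Abcb10-null cells, each undifferentiated (day 0, no DMSO) or after 2 or 5 days in 1.5% DMSO, were labelled as 5 biological replicates per group, giving 30 libraries of total RNA. The Abcb10-null cells were 1 CRISPR/Cas9 clone of the line, so a difference between genotypes cannot be told apart from a difference between this clone and the WT cells.

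An aminoacyl-tRNA synthetase joins an amino acid to its transfer RNA (tRNA), the step that supplies ribosomes with charged tRNA. Cytosolic and mitochondrial translation use mostly separate enzymes encoded by separate nuclear genes, although *Gars* and *Kars* supply the glycyl and lysyl enzymes of both compartments. A group of cytosolic enzymes is held together by the scaffold proteins Aimp1, Aimp2 and Eef1e1 in the multisynthetase complex. When uncharged tRNA accumulates, the kinase GCN2 phosphorylates eIF2α, translation of the transcription factor ATF4 increases, and ATF4 with C/EBP proteins binds amino acid response elements near many genes of amino acid supply, several cytosolic synthetases among them.

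The core of that element, TGATGNAA (N is any base; both strands were searched), was looked for in the window from 250 bases before to 50 bases after the annotated starts in RefSeq (GRCm38.p6). A promoter was matched for 27 of the 36 genes, and those of *Cars*, *Hars*, *Lars*, *Nars*, *Rars*, *Vars*, *Wars*, *Hars2* and *Pars2* were not analysed here. The letters occurred in the windows of 5 of 13 cytosolic genes (38.5%) and 0 of 14 mitochondrial genes, against 4.51% of all 27025 genes with a promoter in the table. Of the 6 matches, 5 are printed, 1 for each gene, as 30-base windows on the sense strand of the gene, with the matched letters in capitals, because these genes were among those that moved together at day 5. A match is a description of the sequence and not of binding.
Aars (chr8:111033840-111033869, plus strand, match from base 10, the start being base 1): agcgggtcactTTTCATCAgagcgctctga
Gars (chr6:55037960-55037989, plus strand, match 30 bases before the start): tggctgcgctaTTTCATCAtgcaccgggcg
Tars (chr15:11399655-11399684, minus strand, match 15 bases before the start): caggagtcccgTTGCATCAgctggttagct
Iars (chr13:49682126-49682155, plus strand, match from base 8): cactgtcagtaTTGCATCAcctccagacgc
Yars (chr4:129189895-129189924, plus strand, match from base 4): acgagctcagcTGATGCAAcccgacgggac

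Library totals ranged from 9906783 to 20157768 counts. *Abcb10* transcripts were lower in Abcb10-null than in WT cells at each day without overlap of the libraries (177 to 237 against 1152 to 1264 CPM at day 5, where CPM is the usual count scaled to library size). Of 11 erythroid markers, 10 were matched in the annotation used and 9 or 10 of them reached a group mean of 1 CPM in every group, whereas the summed levels of the 6 myeloid, 3 lymphoid and 4 stromal markers were at most 14 CPM in any library. The 2 megakaryocyte markers, *Pf4* and *Itga2b*, summed to between 153 and 603 CPM. The erythroid markers differed with genotype: after 5 days their sum was 7802 to 12752 CPM in WT libraries and 4222 to 5634 CPM in Abcb10-null ones, and its part in the synthetase differences was not tested. In bulk RNA, fewer cells of one kind cannot be told apart from less RNA per cell. Of the 30 libraries, 3 stood apart in the cytosolic results that follow, WT day 5 replicate 5 and Abcb10-null day 2 replicates 2 and 5, and Abcb10-null day 0 replicates 3 and 4 stood apart in *Lars2*. Several results are also given without them.

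Summed over the 20 cytosolic genes, transcripts became fewer during WT differentiation, whereas in Abcb10-null cells the mean sum did not go below its day 0 value. The undifferentiated WT sum was 8140 ± 202 CPM (SD, n = 5), which became 4697 ± 276 after 2 and 3629 ± 1565 after 5 days of DMSO. The corresponding Abcb10-null sums were 7662 ± 323, 8712 ± 3165 and 8934 ± 864 CPM. At day 5 the WT libraries held 3139, 2575, 3037, 2994 and 6402 CPM in replicates 1 to 5, the order in which library values are given throughout, and the Abcb10-null libraries held 7838, 9257, 9837, 8215 and 9524 CPM. The highest WT library, replicate 5, was below the lowest Abcb10-null library. At day 2 the Abcb10-null libraries spread widely, with 12050, 4841, 9145, 11383 and 6142 CPM, and replicate 2 lay within the WT range of 4441 to 5116 CPM.

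The mitochondrial genes, summed without *Lars2* because of its spread described below, had lower mean sums after DMSO in both genotypes. The WT sum went from 1138 ± 29.4 CPM before DMSO to 805 ± 29.9 after 2 and 552 ± 97.6 after 5 days, and the Abcb10-null sum went from 1114 ± 34.03 to 1022 ± 169 and 736 ± 94.2 CPM (SD, n = 5). The ratio of the cytosolic to the mitochondrial sum differed most between the genotypes at day 5. Undifferentiated WT cells had a ratio of 7.16 ± 0.188 and Abcb10-null cells 6.88 ± 0.286, which after 2 days became 5.84 ± 0.378 and 8.30 ± 1.82, and after 5 days 6.38 ± 1.40 and 12.2 ± 0.554. The 5 Abcb10-null libraries of day 5 had ratios of 11.7 to 13, and the WT libraries had 5.39 to 8.85. These sums are descriptions over the chosen genes and carry no test.

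**Figure D1:**
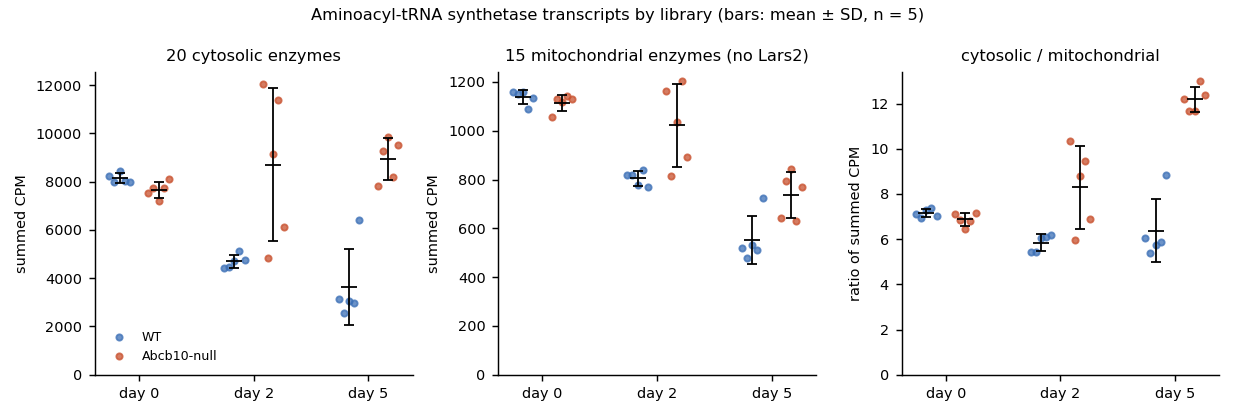
Summed CPM of the 20 cytosolic genes (left), of 15 mitochondrial genes without Lars2 (middle) and their ratio (right) in each library at days 0, 2 and 5. Points are libraries (blue WT, red Abcb10-null) and black bars are the mean ± SD of 5. At day 5 the Abcb10-null ratios of 11.7 to 13 lie above all WT ratios, and 1 WT library has a cytosolic sum of 6402 CPM.

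At day 5, 18 of the 20 cytosolic genes were higher in Abcb10-null than in WT cells and none was lower, against 19.8% of all 12676 genes tested that were called higher and 17.8% called lower (edgeR, adjusted p under 0.05). The median log2 fold change of the cytosolic genes was 1.19, beside -0.016 over all genes. Of the 16 mitochondrial genes, 6 were higher and none lower, with a median of 0.275. The 5 libraries of each genotype did not overlap for 15 cytosolic and 3 mitochondrial genes, all higher, against 13.5% of all genes in that direction. Without WT replicate 5 the counts were 18 cytosolic and 8 mitochondrial genes higher.

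**Figure D2:**
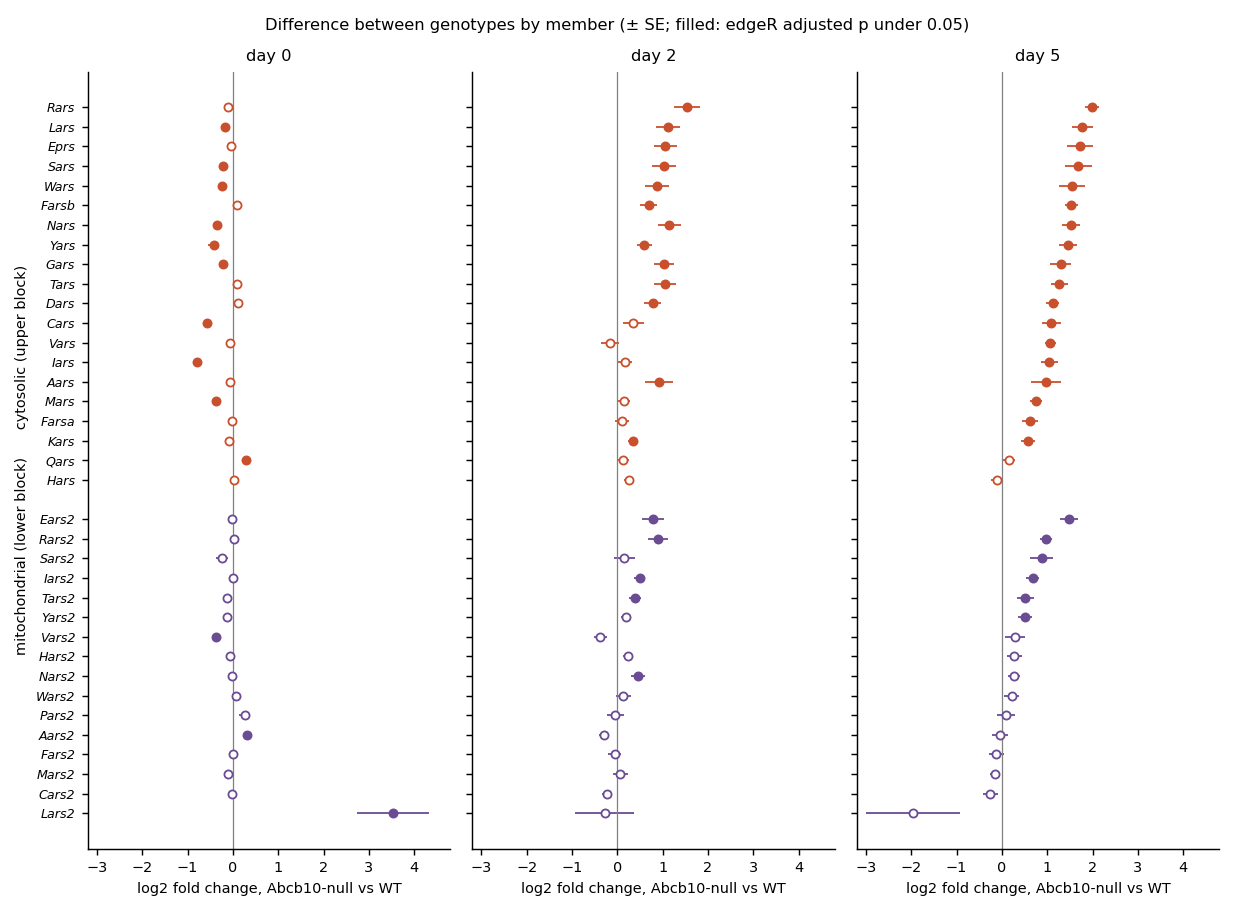
Difference between Abcb10-null and WT cells (log2 fold change) at days 0, 2 and 5 for each of the 36 genes, ordered within each class by the day 5 value. Points are edgeR estimates with standard errors as bars, red for cytosolic and purple for mitochondrial genes, filled where the adjusted p was under 0.05. At day 5, 18 of 20 cytosolic and 6 of 16 mitochondrial points are filled to the right of 0.

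*Rars* (chr11:35808381-35834506), which charges arginine, had the largest difference. Its level at day 5 was 159.7, 118, 150.1, 137 and 213 CPM in WT and 567, 565, 624, 635 and 705 CPM in Abcb10-null libraries (log2 fold change 1.99, SE 0.14, edgeR adjusted p = 1.87e-06). Every Abcb10-null library was well above the highest WT library. Before DMSO the level had been 459.5, 455, 489, 466 and 438 CPM in WT and 435, 423, 424, 443 and 439.8 CPM in Abcb10-null libraries, which overlapped (log2 fold change -0.10, SE 0.051, edgeR adjusted p = 0.141). At day 2 it was 173, 176, 207, 214 and 195 CPM in WT libraries and 924, 245, 526, 817 and 386 CPM in Abcb10-null libraries (log2 fold change 1.53, SE 0.28, edgeR adjusted p = 0.0037). The day 2 groups did not overlap, although Abcb10-null replicates 2 and 5 lay closest to the WT libraries.

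*Rars2* (chr4:34614957-34660167) is the mitochondrial counterpart. It held 31.5, 28.8, 33.2, 29 and 39.7 CPM in WT and 52.03, 72.4, 71.3, 55.4 and 69.2 CPM in Abcb10-null libraries at day 5 (log2 fold change 0.98, SE 0.13, edgeR adjusted p = 1.37e-04). The groups were apart, with a smaller difference than for *Rars*. At day 2 it held 39.7, 40.6, 55.7, 51.02 and 42.9 CPM in WT and 127, 51.1, 87.2, 112 and 63.3 CPM in Abcb10-null libraries (log2 fold change 0.89, SE 0.22, edgeR adjusted p = 0.00987). Here Abcb10-null replicate 2 lay inside the WT range. At day 0 the means were 76.7 ± 5.41 and 77.7 ± 3.82 CPM (log2 fold change 0.013, SE 0.066, edgeR adjusted p = 0.901).

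*Lars* (chr18:42202298-42262194), the leucyl enzyme of the multisynthetase complex, held 153, 135, 149, 142 and 347 CPM in WT and 572, 645, 698, 551 and 708 CPM in Abcb10-null libraries at day 5 (log2 fold change 1.78, SE 0.23, edgeR adjusted p = 1.14e-04). *Eprs* (chr1:185363044-185428360), a fused glutamyl and prolyl enzyme of the same complex, held 456, 395, 444, 431 and 1231 CPM and 1614, 2029.6, 2187, 1774 and 2170.0 CPM (log2 fold change 1.73, SE 0.28, edgeR adjusted p = 4.95e-04). In both genes WT replicate 5 stood far above the other WT libraries and still below every Abcb10-null library. Without it the *Lars* value was 2.11 (edgeR adjusted p = 1.07e-07) and the *Eprs* value was 2.16 (edgeR adjusted p = 1.54e-07).

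*Sars* (chr3:108424865-108445209), the seryl enzyme, also charges the tRNA from which selenocysteine is made. It held 183, 119.6, 170.0, 169 and 497 CPM in WT and 722, 724, 759.8, 661 and 791 CPM in Abcb10-null libraries at day 5 (log2 fold change 1.69, SE 0.30, edgeR adjusted p = 9.42e-04), and 2.17 without WT replicate 5 (edgeR adjusted p = 2.08e-07). The Abcb10-null libraries lay close together and the WT libraries did not. *Wars* (chr12:108860030-108894174), the tryptophanyl enzyme, held 15.96, 21.8, 23.01, 20.03 and 58.1 CPM in WT and 71.8, 82.3, 81.8, 69.1 and 102 CPM in Abcb10-null libraries (log2 fold change 1.55, SE 0.29, edgeR adjusted p = 0.00123), and 1.99 without WT replicate 5 (edgeR adjusted p = 1.95e-06). *Farsb* (chr1:78417975-78488897), a subunit of the phenylalanyl enzyme, held 79.1, 56.6, 78.1, 70.7 and 99.2 CPM and 185, 236, 253, 201 and 238 CPM (log2 fold change 1.53, SE 0.14, edgeR adjusted p = 9.43e-06). For *Farsb* the groups were apart, and WT replicate 5 was the highest WT library without being far from the rest. Its partner subunit *Farsa* had a smaller value of 0.62 (edgeR adjusted p = 0.012), with overlapping groups.

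*Hars* (chr18:36766528-36783205), the histidyl enzyme, had the smallest difference at day 5 among the cytosolic genes, and *Qars* was the only other one not called (0.16, edgeR adjusted p = 0.33). *Hars* held 212, 150.4, 181, 194 and 267 CPM in WT and 185, 202, 209, 161 and 176 CPM in Abcb10-null libraries (log2 fold change -0.11, SE 0.13, edgeR adjusted p = 0.53). The groups overlapped, with WT replicate 5 the highest of the 10 libraries. The remaining 12 cytosolic genes that were higher ranged from 0.58 in *Kars* to 1.52 in *Nars*, the asparaginyl enzyme. *Aars*, the alanyl enzyme, was 0.97 (edgeR adjusted p = 0.0321) with overlapping groups, since WT replicate 5 held 1127 CPM. Its value without that library was 1.53, and it was not called when any of 7 other single libraries was left out.

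The other cytosolic genes whose libraries were apart at day 5 showed the same order. *Nars* held 143 to 347 CPM in WT and 483 to 657 CPM in Abcb10-null libraries. *Yars*, the tyrosyl enzyme, held 67.9 to 149 and 202 to 275 CPM. *Gars*, the glycyl enzyme of both compartments, held 173 to 445 and 527 to 659 CPM (log2 fold change 1.30). In each of these the highest WT library was below the lowest Abcb10-null library. *Tars*, the threonyl enzyme, held 147 to 344 and 436 to 579 CPM (1.26), and *Dars*, the aspartyl enzyme, 173 to 226 and 341 to 550.0 CPM (1.12). *Cars* held 44.1 to 112 and 114 to 145 CPM (1.09), and *Vars*, the valyl enzyme, 25.7 to 36.2 and 54.3 to 76.1 CPM (1.07). *Iars* held 95.5 to 205 and 236 to 311 CPM (1.05), and *Mars*, the methionyl enzyme that also charges the tRNA with which translation starts, 64.2 to 107 and 112 to 142 CPM (0.75). *Kars*, the lysyl enzyme of both compartments, was called higher with overlapping libraries, at 108 to 221 CPM in WT and 196 to 256 CPM in Abcb10-null cells.

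Among the mitochondrial genes, *Ears2* (chr7:122037213-122067263), which charges glutamate, differed most among those called. Its libraries held 5.25, 4.79, 3.80, 5.50 and 7.08 CPM in WT and 12.1, 12.8, 14.4, 14.02 and 20.98 CPM in Abcb10-null libraries at day 5 (log2 fold change 1.48, SE 0.21, edgeR adjusted p = 1.73e-04). The groups were apart, and Abcb10-null replicate 5 was well above the other 4. *Sars2* (chr7:28741992-28753871), the seryl enzyme, held 3.43, 2.81, 3.15, 4.99 and 6.25 CPM and 5.81, 9.84, 8.99, 6.75 and 6.87 CPM (log2 fold change 0.88, SE 0.26, edgeR adjusted p = 0.0164), which overlapped. Without Abcb10-null replicate 2 it was 0.76 (edgeR adjusted p = 0.0525). *Iars2* (0.68), *Tars2* (0.51) and *Yars2* (0.51) were the other mitochondrial genes called higher (edgeR adjusted p = 0.00198, 0.0467 and 0.0219). *Tars2* was called in only 2 of 10 fits with 1 library left out, and *Yars2* in 8 of 10. *Aars2*, *Fars2*, *Mars2* and *Cars2* had values between -0.25 and -0.042 and were not called.

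**Figure D3:**
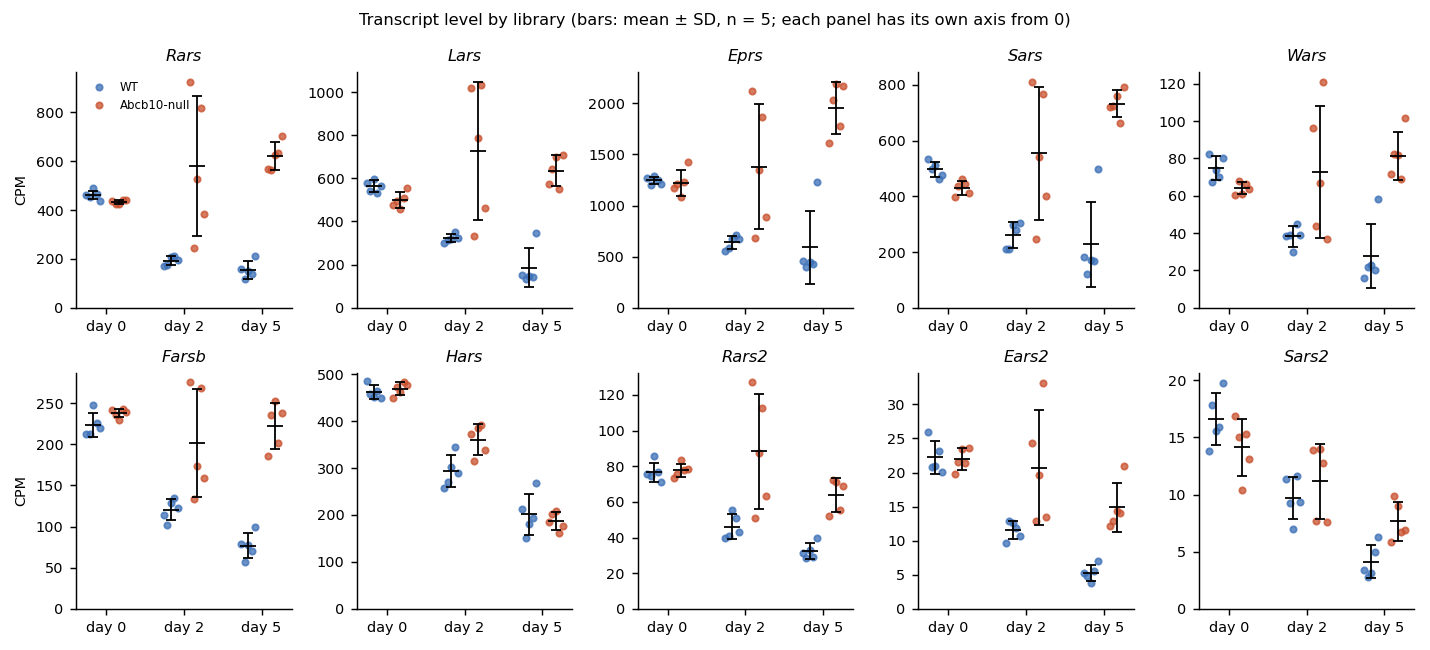
CPM of 7 cytosolic and 3 mitochondrial genes in each library at days 0, 2 and 5, each panel on its own linear axis from 0. Points are libraries (blue WT, red Abcb10-null) and bars are the mean ± SD of 5. In the Hars panel the genotypes overlap at day 5, whereas the Rars panel has no overlap at days 2 and 5.

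At day 2, 13 cytosolic genes were higher in Abcb10-null cells and none was lower, against 14.9% of 13053 genes called higher and 16.9% called lower. The median over the cytosolic genes was 0.74, beside -0.002 over all genes. *Rars* led, followed by *Nars* (1.15), *Lars* (1.12), *Eprs* (1.06) and *Tars* (1.05). Of the mitochondrial genes, *Rars2* (0.89), *Ears2* (0.79), *Iars2* (0.49), *Nars2* (0.45) and *Tars2* (0.39) were higher, 5 in all, with a median of 0.142 for the class. The groups did not overlap for 5 cytosolic and 2 mitochondrial genes, against 8.01% of all genes in that direction.

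The day 2 values rested on uneven Abcb10-null libraries. *Trib3*, a gene that ATF4 raises, held 728, 23.2, 964, 960.0 and 242 CPM in the Abcb10-null libraries and 24.9 to 49.9 CPM in the WT libraries, so that the libraries with low synthetase levels, replicates 2 and 5, were also the lowest in *Trib3*. Their part in the result was not tested beyond leaving them out, which gave 17 cytosolic and 6 mitochondrial genes higher, and 2 mitochondrial genes lower. With single libraries left out the cytosolic count ranged from 9 to 14. The mitochondrial count was 2 without Abcb10-null replicate 1 or 4 or WT replicate 1 or 5, and 3 without WT replicate 3 or 4.

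At day 0, before DMSO, the cytosolic differences were more often in the other direction. Of the cytosolic genes 9 were lower and 1 higher in Abcb10-null cells, against 16.2% of 12912 genes called lower and 19.7% called higher. The median was -0.09, beside -0.002 over all genes. *Iars*, the isoleucyl enzyme, was lowest (log2 fold change -0.79, SE 0.08, edgeR adjusted p = 4.18e-07), with 197, 199, 233, 214 and 239.7 CPM in WT and 143, 128, 106, 120.2 and 132 CPM in Abcb10-null libraries. *Cars* (-0.57), *Yars* (-0.43), *Mars* (-0.38) and *Nars* (-0.34) followed. The gene called higher was *Qars* (0.29, edgeR adjusted p = 2.54e-04). The groups did not overlap for 5 cytosolic genes that were lower, against 9.15% of all genes in that direction. With all 30 libraries in one fit only 1 cytosolic gene was called lower and none higher at day 0. Of the mitochondrial genes, *Vars2* was lower (-0.37), and *Aars2* (0.30) and *Lars2* (3.53, which rested on 2 libraries as described below) were higher.

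Within WT cells, 17 cytosolic genes fell and 1 rose from day 0 to day 2, against 30.7% of 12839 genes that fell and 31.5% that rose (median -0.83, beside 0.010 over all genes). *Vars*, the valyl enzyme, was the gene that rose (0.75, edgeR adjusted p = 0.00291), and it was lower at day 5 than at day 0 (-0.58). By day 5, 18 cytosolic genes had fallen and none had risen, against 34.7% of 12723 genes that fell and 36.5% that rose (median -1.23, beside 0.023). *Kars* fell most (-1.77), and *Aars* (-0.29) and *Cars* (-0.35) were not called. Without WT day 5 replicate 5 all 20 were lower. The mitochondrial genes fell too, 9 by day 2 and 11 by day 5 (medians -0.29 and -0.86), with *Yars2* (-2.34), *Ears2* (-2.06) and *Sars2* (-1.998) lowest at day 5. At day 2, *Lars2* (1.10) and *Fars2* (0.41) were called higher than at day 0, and the libraries of the 2 days did not overlap for *Fars2*. *Fars2* (0.31) and *Lars2* were called higher at day 5, and neither was without WT day 5 replicate 5.

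Within Abcb10-null cells the cytosolic genes divided. By day 5, 12 had risen and 5 had fallen, against 33.9% of 12915 genes that rose and 33.3% that fell (median 0.36, beside 0.014 over all genes). *Cars*, the cysteinyl enzyme, rose most (1.32), then *Iars* (1.11), *Sars* (0.77), *Aars* (0.74) and *Yars* (0.72). *Hars* (-1.32), *Kars* (-1.10), *Farsa* (-0.78), *Qars* (-0.67) and *Tars* (-0.48) fell. Of the mitochondrial genes 9 fell and none rose (median -0.41), led, apart from *Lars2*, by *Aars2* (-1.78), *Yars2* (-1.69) and *Cars2* (-1.39).

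At day 2, Abcb10-null cells had 3 cytosolic genes that rose and 4 that fell from day 0, against 23.1% of 12940 genes that rose and 20.1% that fell (median 0.30, beside 0.033). *Cars* (1.09), *Iars* (0.79) and *Vars* (0.74) rose. The count that rose depended on single libraries: it was 10 without Abcb10-null day 2 replicate 2, 7 without replicate 5 and 14 without both. Of the mitochondrial genes 5 rose and 3 fell. With Abcb10-null day 0 replicates 3 and 4 left out, none of the mitochondrial genes was called as having risen.

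**Figure D4:**
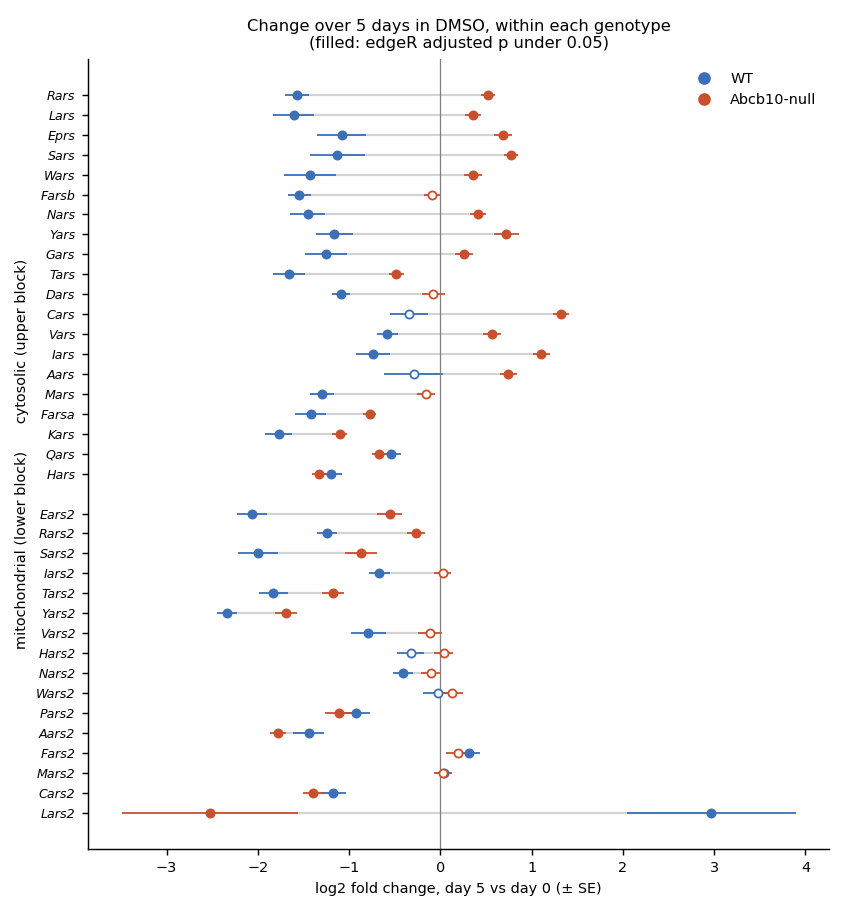
Log2 fold change from day 0 to day 5 within WT (blue) and Abcb10-null (red) cells for each gene, with standard errors as bars and filled points where the edgeR adjusted p was under 0.05. Grey lines join the values of the same gene, and genes are in the order of the plot by genotype. Most cytosolic pairs lie on opposite sides of 0 or with the WT point to the left, and Hars and Qars are the cytosolic exceptions.

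The change over time itself differed between genotypes, which was tested as the interaction of genotype and day. From day 0 to day 5 the interaction was positive for 18 cytosolic genes and negative for none, against 16.8% of 14020 genes called positive and 14.7% called negative (median 1.50, beside -0.011 over all genes). It was 2.10 in *Rars*, 1.97 in *Lars*, 1.91 in *Sars* and 1.89 in *Yars*, and it was not called in *Hars* (-0.11) or *Qars* (-0.12). Of the mitochondrial genes 7 were positive, *Ears2* (1.52), *Sars2* (1.13), *Rars2* (0.98), *Iars2* (0.70), *Vars2* (0.68), *Tars2* (0.66) and *Yars2* (0.65), and *Lars2* was negative. From day 0 to day 2, 16 cytosolic and 5 mitochondrial genes were positive and 2 mitochondrial genes, *Aars2* (-0.54) and *Lars2*, were negative, against 12% and 10.8% of 13980 genes.

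The classes were compared within the 13 pairs of genes whose symbols match apart from the final 2, such as *Rars* and *Rars2*. The phenylalanyl, glutamyl and prolyl genes were not paired, since *Farsa* and *Farsb* encode separate subunits and *Eprs* a fused enzyme. The difference between genotypes at day 5 was larger for the cytosolic gene in 12 of 13 pairs, by a median of 0.94 on the log2 scale, and in 11 of 12 without the leucyl pair (median 0.92). The exception was *Hars* (-0.11) and *Hars2* (0.28). The ratio of cytosolic to mitochondrial CPM within a library was higher in all Abcb10-null than in all WT libraries for 9 of 13 pairs at day 5 and lower for 1, the histidyl pair. For the arginyl pair it ranged from 4.10 to 5.38 in WT and from 7.80 to 11.5 in Abcb10-null libraries. For the alanyl pair the ranges were 9.10 to 23.6 and 23.7 to 37.4, which adjoin. At day 2 the cytosolic gene was again above in 12 of 13 pairs (median 0.64), with 1 pair whose ratios did not overlap. At day 0 it was above in 4 of 13 (median -0.30). The Abcb10-null ratios of day 0 were below all WT ratios for 4 pairs (those of *Aars*, *Cars*, *Iars* and *Nars*) and above them for 2 (those of *Tars* and *Vars*). The pairs share libraries and are not independent, and no test was made over them.

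*Lars2* (chr9:123366927-123462666), the mitochondrial leucyl enzyme, differed from the other mitochondrial genes in that single libraries decided its values. At day 0 it held 9.24, 14.9, 12.7, 11.9 and 26.3 CPM in WT and 13.6, 10.5, 302, 516 and 36.6 CPM in Abcb10-null libraries (log2 fold change 3.53, SE 0.80, edgeR adjusted p = 0.0021). Only Abcb10-null replicates 3 and 4 were high by a wide margin, and without them the value was 0.42 (edgeR adjusted p = 0.368). At day 2 it held 28.7, 28.3, 58.9, 17.5 and 28 CPM in WT and 9.06, 96.9, 8.65, 9.06 and 11.97 CPM in Abcb10-null libraries (log2 fold change -0.28, SE 0.65, edgeR adjusted p = 0.767). Here the single high library was Abcb10-null replicate 2, without which the value was -1.78 (edgeR adjusted p = 0.000827). At day 5 it held 14.2, 44.5, 14.1, 21.6 and 497 CPM in WT and 105, 11.6, 10.6, 11.7 and 10.6 CPM in Abcb10-null libraries (log2 fold change -1.96, SE 1.04, edgeR adjusted p = 0.151). Without WT replicate 5 the value was 0.31 (edgeR adjusted p = 0.758), and without Abcb10-null replicate 1 it was -3.40 (edgeR adjusted p = 0.0274). The interactions of -3.77 from day 0 to 2 and -5.49 from day 0 to 5 became -0.66 and -2.39 without Abcb10-null day 0 replicates 3 and 4, and neither was then called (edgeR adjusted p = 0.626 and 0.207).

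Most of the libraries with high *Lars2* were also high in *Gm42418*, an annotated gene that was chosen for this comparison after its values were seen. The exception was WT day 2 replicate 3, which held 58.9 CPM of *Lars2*, the highest of its group, and 1263 CPM of *Gm42418*, the lowest of its group. *Gm42418* held 1078, 784, 3289.6, 6129 and 879.9 CPM in the Abcb10-null libraries of day 0, 271, 1551, 252, 247 and 399 CPM in those of day 2 and 425, 575, 484, 517 and 5809 CPM in the WT libraries of day 5. The highest library of each of these groups was the same for both genes. Across the 30 libraries Pearson's r between their log2 levels was 0.67 and Spearman's rho 0.64, a description over libraries that also share genotype and day. In the WT libraries of day 0, *Gm42418* was at 1774 to 2812 CPM and *Lars2* at 9.24 to 26.3 CPM. The source of the *Gm42418* reads was not examined. The part of *Gm42418*, or of anything that raises it, in the *Lars2* values was not tested.

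**Figure D5:**
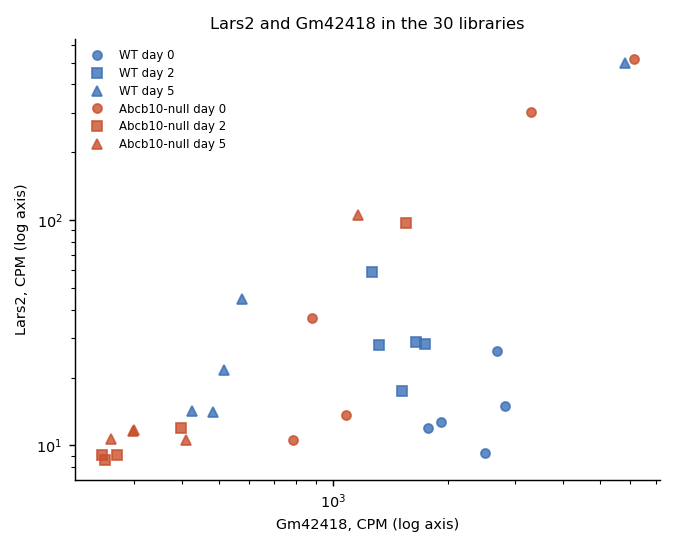
Lars2 against Gm42418 in each of the 30 libraries, both in CPM on log axes. Colour gives the genotype (blue WT, red Abcb10-null) and the symbol the day (circle 0, square 2, triangle 5). WT day 5 replicate 5 and Abcb10-null day 0 replicates 3 and 4 are the highest in both genes, with 302 to 516 CPM of Lars2 and 3290 to 6129 CPM of Gm42418.

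Within the cytosolic class, the 8 enzymes of the multisynthetase complex and the 12 outside it had like counts at day 5. In the complex 7 of 8 were higher (median 1.08), and outside it 11 of 12 (median 1.28), against 19.8% of all genes. Among 11 cytosolic genes listed from general knowledge as raised by ATF4, all 11 were higher at day 5 (median 1.30), against 7 of the 9 others (median 1.07). *Rars* and *Lars* were among the 9 others, although the authors name *Rars* as a downstream target of ATF4. At day 0, 8 of the 11 and 1 of the 9 were lower, against 16.2% of all genes. In the fit of all 30 libraries 1 of the 11 and none of the 9 was lower. The 5 cytosolic genes with the promoter letters printed above were all higher at day 5, from 0.97 in *Aars* to 1.45 in *Yars*, and so were 7 of the 8 cytosolic genes whose window lacked them, from 0.58 in *Kars* to 1.73 in *Eprs*. The difference between any pair of these groups was not tested.

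Other genes of tRNA charging and delivery, 18 in a list, moved in part with the synthetases at day 5: 11 were higher and none lower (median 0.61), against 19.8% and 17.8% of all genes. All 3 scaffold genes of the complex were higher, *Eef1e1* (1.22), *Aimp1* (0.63) and *Aimp2* (0.59). *Xpot*, which exports tRNA from the nucleus, was 1.22, and the elongation factors that carry charged tRNA were 0.74 (*Eef1a1*, cytosolic) and 0.91 (*Tufm*, mitochondrial). *Qrsl1*, a subunit of the mitochondrial amidotransferase that makes glutaminyl-tRNA, was 0.95, while its other subunits *Gatb* (-0.17) and *Gatc* (0.049) were not called. At day 2, 7 of the 18 were higher and 1, *Aarsd1*, lower, against 14.9% and 16.9% of all genes. At day 0, 3 were higher and 5 lower, against 19.7% and 16.2% of all genes, and in the fit of all 30 libraries none was higher and 1 was lower.

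The 6 genes used as a reference for the stress response were all higher at day 5: *Chac1* (4.27), *Trib3* (3.07), *Ddit3* (1.77), *Sesn2* (1.77), *Asns* (1.52) and *Atf4* (1.43). *Ddit3* did not match a unique row of the count table, and its values are those of the row that was kept. *Atf4* held 189, 135, 166, 181 and 416 CPM in WT and 585, 488, 547, 622 and 699.9 CPM in Abcb10-null libraries. WT replicate 5, the library with the highest cytosolic synthetase sum of its group, was also its highest in *Atf4*, and in *Trib3* at 25.5, 18.03, 26.3, 31.5 and 429.7 CPM for the 5 WT libraries. Without that library the day 5 values were 5.90 for *Chac1*, 5.10 for *Trib3*, 2.58 for *Ddit3*, 2.30 for *Sesn2*, 1.93 for *Asns* and 1.79 for *Atf4*. At day 0, 5 of the 6 were lower in Abcb10-null cells, *Atf4* by -0.48 and *Trib3* by -0.60 on the log2 scale, and none was called in the fit of all 30 libraries. Whether these genes had a part in the synthetase values was not tested.

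The levels of the genes themselves spanned a wide range. Per kilobase of exon sequence, the mean WT level at day 0 was highest in *Hars* (189 CPM per kb), *Gars* (179) and *Rars* (143) and, among the mitochondrial genes, in *Tars2* (44.9), with *Lars2* (1.35) the lowest of all 36. In Abcb10-null cells at day 5 *Rars* (192 CPM per kb), *Gars* (184) and *Sars* (142) led. Of the genes described with library values, *Rars*, *Rars2*, *Lars*, *Sars*, *Wars* and *Sars2* share no exon bases with another annotated gene and no 51-base sequence with another gene. *Eprs* shares no exon bases with another annotated gene, but 0.72% of its 51-base sequences with other genes. *Ears2* shares 1.73% of its exon bases with *Ubfd1* on the opposite strand. *Lars2* shares no exon bases with another annotated gene, but 0.178% of its 51-base sequences with genes that include *Gm15564*. *Farsb* shares 9.47% of its exon bases with *Sgpp2*, *Hars* 7.97% with *Hars2*, *Mars* 1.99% with *Ddit3* and *Iars2* 24.2% with *Rab3gap2* and *2010103J01Rik*, all on opposite strands, *Aars* shares 14.3% on the same strand with neighbours that include *Exosc6*, and *Iars* shares 6.85% of its 51-base sequences with the gene *Gm4849*. The strand setting of the authors' counting is not given in the sources used here, so how those reads were divided cannot be told.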

How the data were processed

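After removal of ribosomal and globin RNA, the authors made stranded paired-end libraries, and trimmed reads were aligned to GRCm38 with STAR 2.6.1b and counted over Ensembl genes with featureCounts 1.6.3 (versions from the submitters' processing notes). The deposited values are their raw counts per gene, not normalized, with 54532 genes listed and 9219 of them at 0 in all libraries. Groups and replicate numbers came from the labels. The 36 members and all lists were chosen with earlier results of these data known. Counts were tested with edgeR 4.0.16 in R 4.3.3 (TMM, filterByExpr, glmQLFit, glmQLFTest) over all genes that passed the filter, with Benjamini-Hochberg adjusted p under 0.05, using only the libraries of the groups compared (10, or 20 for interactions). CPM values are counts over TMM-scaled library sizes. Library values are printed for *Rars*, *Rars2*, the largest called differences in each class at day 5, the largest called interactions to day 5 and the smallest cytosolic difference. Alternatives were DESeq2 1.42.0, its size factors, other filters, all 30 libraries together, a replicate block, a table without 6140 globin, mitochondria-encoded and small RNA genes, and libraries left out. Replicate libraries differed by more than counting noise (lowest chi-square per degree of freedom 6.23). Annotation was GENCODE M21. The promoter letters were searched in RefSeq windows. Of the matches, 1 is not reported here.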

Additional observations from a re-analysis of the deposited data

Results flagged for a closer look

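In 9 of 66 groups of 5 libraries, 1 library lay farther from the others than Dixon's critical value of 0.71 allows, which chance alone gives in about 1 group in 20. The groups are of different genes in the same libraries and are not independent, so 9 of 66 cannot be set against that rate as a test. WT day 5 replicate 5 was such a library for *Lars* (347 CPM), *Eprs* (1231 CPM), *Sars* (497 CPM), *Wars* (58.1 CPM) and *Lars2* (497 CPM). *Lars2* was also far from the rest in WT day 2 replicate 3 (58.9 CPM), Abcb10-null day 2 replicate 2 (96.9 CPM) and Abcb10-null day 5 replicate 1 (105 CPM). *Ears2* was so in Abcb10-null day 5 replicate 5 (20.98 CPM).

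The change over time differed between the genotypes, by edgeR's interaction term, over both spans for *Lars2* and for 8 others of the genes that the rule for printing library values chose. On the log2 scale, from day 0 to 2 and from day 0 to 5, the interaction was 1.68 and 2.10 for *Rars*, 0.92 and 0.98 for *Rars2*, 1.35 and 1.97 for *Lars*, 1.14 and 1.77 for *Eprs*, 1.29 and 1.91 for *Sars*, 1.159 and 1.79 for *Wars*, 0.66 and 1.47 for *Farsb*, and 0.86 and 1.52 for *Ears2*. For *Sars2* it was 1.13 from day 0 to 5, and its value to day 2 was not called. For *Lars2* it was -3.77 and -5.49, values that rest on the libraries named with it in the results. *Iars*, whose library values are printed for day 0 only, had interactions of 1.02 and 1.85.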

How the results depend on the processing

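Of 1882 comparisons with an alternative setting, 1771 were scored as the same, and of 2930 with 1 library left out, 2741 were. The comparisons covered values of single genes and counts of calls. A value was scored as the same if it kept direction and side of the threshold. A count was so scored if it moved by no more than the factor named below for the replicate block. Counts scored as the same may therefore differ. No called value turned except that of *Lars2* from day 0 to 5 in Abcb10-null cells. With all 30 libraries in one fit, day 0 had 0 cytosolic genes higher and 1 lower, and 1 mitochondrial gene higher and 0 lower. Mitochondrial genes lower at day 0 were 2 with DESeq2, with its size factors, or without Abcb10-null day 0 replicates 3 and 4 (chosen after seeing the data), when 1 was higher. Mitochondrial genes lower were 1 at day 2 with at least 10 counts in every library, 2 without Abcb10-null day 2 replicates 2 and 5 (also chosen after seeing the data), and 1 at day 5 with every gene of at least 1 count. Mitochondrial genes that rose in WT cells were 1 at day 2 with all 30 libraries, and at day 5 were 0 with DESeq2 and 1 with every gene of at least 1 count. In Abcb10-null cells at day 2, 10 cytosolic genes rose with every gene of at least 1 count and 14 without day 2 replicates 2 and 5, and 3 mitochondrial genes rose with DESeq2, its size factors, the filter of 10 counts or all 30 libraries, 1 with every gene of at least 1 count and 0 without day 0 replicates 3 and 4. Mitochondrial interactions to day 2 were 8 positive without day 2 replicates 2 and 5, and 1 negative with all 30 libraries or without day 0 replicates 3 and 4, which left 0 negative to day 5. The cause was not tested.

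Libraries with the same replicate number did not in general deviate together. Over 75 same-number pairs of libraries the correlation of deviations ran from -0.339 to 0.496 (median -0.0269), with 10 over 0.1. These values cannot show whether some of the libraries were paired. With the replicate number as a block, mitochondrial genes were 3 higher at day 2, 1 that rose in WT cells by day 5, 2 that rose in Abcb10-null cells by day 2, and 1 and 0 negative interactions to days 2 and 5; other counts of calls moved by less than 1.5 times.

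With 1 library left out, mitochondrial counts ranged from 1 to 2 lower at day 0, 2 to 5 higher and 0 to 2 lower at day 2, 0 to 1 lower at day 5, 0 to 2 that rose in WT cells by day 5, 3 to 5 that rose in Abcb10-null cells by day 2, 3 to 7 positive and 1 to 2 negative interactions to day 2 and 1 to 2 negative to day 5. Cytosolic genes that rose in Abcb10-null cells by day 2 ranged from 3 to 10.

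Values that took the other sign were small or those of *Lars2*. At day 0, with 1 library left out, *Eprs* ranged from -0.087 to 0.0085, *Hars* from -0.010 to 0.028, *Ears2* from -0.071 to 0.019 and *Rars2* from -0.025 to 0.038. *Lars2* ranged from -1.78 to 0.045 at day 2 and, at day 5, from -3.40 to 0.31, *Aars2* from -0.19 to 0.096 and *Pars2* from -0.049 to 0.18. From day 0 to 2 in Abcb10-null cells *Eprs* ranged from -0.00016 to 0.38, *Wars* from -0.028 to 0.38 and *Ears2* from -0.28 to 0.080, and the *Hars* interaction to day 5 ranged from -0.20 to 0.0040. With DESeq2 size factors *Hars* was -0.00091 and *Rars2* -0.0034 at day 0. Without Abcb10-null day 0 replicates 3 and 4, *Eprs* was 0.022 and *Rars2* -0.020 at day 0, and *Lars2* was 0.47 and 0.58 from day 0 to days 2 and 5 in Abcb10-null cells. Without Abcb10-null day 2 replicates 2 and 5, *Farsb* was 0.032 and *Ears2* 0.25 from day 0 to 2.

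With 5 libraries a group and 1 clone, the tests measure the spread between these cultures. The lowest count of any of the 36 genes in a library was 34, at which counting error alone is 17.1%, so that it is part of the spread of the low mitochondrial genes.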

Other observations

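Across the 30 libraries, the log2 levels of most cytosolic genes varied with that of *Atf4*, and those of mitochondrial genes less so. Pearson's r with *Atf4* was 0.97 for *Sars* (Spearman's rho 0.97), 0.94 for *Eprs* (0.92), 0.94 for *Nars* (0.94) and 0.93 for *Rars* (0.95), and 0.24 for *Hars* (0.13), 0.33 for *Qars* (0.21) and 0.34 for *Vars* (0.41). Among mitochondrial genes *Iars2* (r 0.80, rho 0.74) and *Rars2* (r 0.77, rho 0.64) were highest, and *Cars2* (r 0.015, rho -0.080) and *Fars2* (r -0.037, rho 0.026) were near 0. *Lars2*, whose values single libraries decided, was lowest (r -0.24, rho -0.54). The libraries share genotype, day and library composition, so these values are a description and carry no test.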
